A study of Mus musculus with 6 samples.

Results

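The 5 genes described here encode the classical Fc gamma receptors of the mouse and their shared signalling chain, and they were followed among 22800 gene symbols measured by RNA sequencing of cells in bronchoalveolar lavage fluid. They were chosen by gene symbol as Fcgr1, Fcgr3, Fcgr4, Fcgr2b and Fcer1g, and all 5 of the 5 passed the filter on low values and were among the 10405 genes tested. There were 3 libraries from mice given vehicle (replicates 2, 3 and 4) and 3 from mice given 20 µg of sulfatide, a sulfated glycolipid of myelin and other membranes that is presented by CD1d, into the peritoneal cavity (replicates 1, 2 and 3). The labels name no genotype, strain, age or sex, and leave unstated whether each library is a different mouse, a pool or a repeat. The p-values therefore measure the spread between libraries only, and this spread may be technical. The title of the series concerns sulfatide-reactive type II NKT cells, alveolar macrophages and lung ischemia-reperfusion injury. The labels do not say whether either group had undergone ischemia and reperfusion.

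Fc gamma receptors bind the constant part of IgG and let macrophages take up opsonised particles and immune complexes. The activating receptors signal through Fcer1g, a short transmembrane chain with an immunoreceptor tyrosine-based activation motif (ITAM) that Src family kinases phosphorylate and that then recruits the kinase Syk. Fcgr2b, the inhibitory receptor, carries an inhibitory motif (ITIM) in its own tail and recruits the lipid phosphatase SHIP1 (Inpp5d). The ratio of activating to inhibitory receptors is known to set the threshold at which immune complexes trigger a macrophage, and interferon gamma is known to raise the activating receptors while interleukin 4 raises the inhibitory one.

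The genes lie in a pair of places in the genome (GRCm38, GENCODE M21). Fcgr2b (chr1:170958617-170976547, minus strand), Fcgr4 (chr1:171018920-171029761, plus strand), Fcgr3 (chr1:171051174-171064935, minus strand) and Fcer1g (chr1:171229572-171234365, minus strand) share a stretch of chromosome 1, and Fcgr1 (chr3:96282909-96293969, minus strand) is on chromosome 3. The sequences upstream of the 4 receptor genes are shown because Fcgr2b and Fcgr3 moved together in the data and Fcgr1 did not move with them. Each is the 250 bases before a RefSeq start site (GRCm38.p6), written 5′ to 3′ on the strand of the gene, with capitals marking the searched motifs listed after the sequences.
Fcgr2b, chr1:170976072-170976321, minus strand: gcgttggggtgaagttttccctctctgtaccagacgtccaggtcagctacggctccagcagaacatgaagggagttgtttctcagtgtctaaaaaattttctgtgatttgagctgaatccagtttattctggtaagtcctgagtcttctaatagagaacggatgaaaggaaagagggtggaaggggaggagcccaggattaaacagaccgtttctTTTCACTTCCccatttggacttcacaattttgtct
Fcgr3, chr1:171059404-171059653, minus strand: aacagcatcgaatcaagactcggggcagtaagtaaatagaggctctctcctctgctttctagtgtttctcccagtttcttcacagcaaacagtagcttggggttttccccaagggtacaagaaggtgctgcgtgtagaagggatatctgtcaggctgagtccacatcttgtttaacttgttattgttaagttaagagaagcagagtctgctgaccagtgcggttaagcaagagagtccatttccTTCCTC
Fcgr4, chr1:171018676-171018925, plus strand: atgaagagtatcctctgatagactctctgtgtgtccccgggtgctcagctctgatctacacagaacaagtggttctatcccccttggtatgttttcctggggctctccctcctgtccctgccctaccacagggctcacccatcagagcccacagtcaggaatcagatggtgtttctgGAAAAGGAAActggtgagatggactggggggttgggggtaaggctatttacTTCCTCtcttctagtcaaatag
Fcgr1, chr3:96293970-96294219, minus strand: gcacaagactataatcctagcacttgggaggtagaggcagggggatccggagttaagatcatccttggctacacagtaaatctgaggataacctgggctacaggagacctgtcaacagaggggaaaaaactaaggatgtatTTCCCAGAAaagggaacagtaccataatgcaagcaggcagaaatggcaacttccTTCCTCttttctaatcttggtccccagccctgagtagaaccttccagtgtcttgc
The motifs were searched as 4 patterns on both strands, and they were picked after the promoters and the expression values had been seen. The Ets-IRF composite element (GGAA, any 2 bases, GAAA) was in the Fcgr2b window at positions -35 to -26 from the start site, and in 2.30% of the 32817 RefSeq windows of this length. The core bound by the myeloid factor PU.1 (GAGGAA) was in the Fcgr3 window at -6 to -1, in the Fcgr4 window at -22 to -17 and in the Fcgr1 window at -55 to -50, each on the opposite strand, and in 23.3% of all windows. The gamma-activated site (GAS, TTCNNNGAA), an element of interferon gamma responsive promoters, was in the Fcgr1 window at -109 to -101, and in 7.01% of all windows. The core of the interferon-stimulated response element (ISRE; GAAA, any 2 bases, GAAA) was in the Fcgr4 window at -73 to -64, and in 2.97% of all windows. The window before Fcer1g held none of these letters. A match is a description of the sequence and not a bound site, and GENCODE places further start sites of Fcgr2b and Fcgr3 upstream of the windows shown.

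One more sequence bears on how the values were made. Fcgr2b and Fcgr3 encode nearly the same IgG-binding ectodomain, and their coding sequences were 96.5% identical over 509 aligned bases. The longest run without a difference was 129 bases, at coding positions 278 to 406 of Fcgr2b and 263 to 391 of Fcgr3.
Fcgr2b and Fcgr3, shared coding run: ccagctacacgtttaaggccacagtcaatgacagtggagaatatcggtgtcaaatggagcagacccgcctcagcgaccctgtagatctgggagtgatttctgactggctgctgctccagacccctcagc
A stretch of 75 bases was found unchanged in the other gene at 94 of the 727 possible positions of the Fcgr3 coding sequence (12.9%) and at 94 of the 946 of Fcgr2b (9.9%). No stretch of 150 bases was shared, and Fcgr1, Fcgr4 and Fcer1g shared no stretch of either length with another gene of the 5. How the authors assigned such reads is not given in the sources used here, so the split of signal between Fcgr2b and Fcgr3 is uncertain. These counts cover only exact matches of stretches of coding sequence, so the share of reads that could fit both genes is unknown.

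Expression is given as FPKM, the number of fragments scaled to transcript length and to the size of the library, which the authors deposited for each library and which allows levels of different genes to be set side by side. Values of single libraries are listed by replicate number, 2, 3 and 4 for vehicle and 1, 2 and 3 for sulfatide. Differences between groups were tested with limma on log2(FPKM + 1), and a gene was called at a Benjamini-Hochberg adjusted p below 0.05 over all 10405 genes tested. Of these, 18.7% were called, 8.31% higher and 10.4% lower in sulfatide. The 3 libraries of one group lay wholly above or below those of the other in 37.0% of genes, 18.6% higher and 18.3% lower in sulfatide. Among the 5 genes, 2 were called higher (Fcgr3 and Fcgr2b), 0 lower, and 3 were not called, although all 5 had an unadjusted limma p below 0.05, Fcgr1 lower and the other 4 higher in sulfatide. The share of all genes tested with such an unadjusted p was not counted. It is at least the 18.7% called, so the count of 5 is not read as particular to these genes. The groups did not overlap for 4 of the 5, each higher in sulfatide. The median log2 fold change of the 5 was 0.52, and that of all genes tested was 0.04.

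Across the genes tested, on log2(FPKM + 1), libraries of one group correlated at r = 0.990 to 0.995. Libraries of different groups correlated at r = 0.967 to 0.982. Vehicle replicate 3 was nearer to each sulfatide library (r = 0.979 to 0.982) than the other vehicle libraries were (r = 0.967 to 0.977). Summed FPKM was 1126779 to 1168474 in vehicle and 1217971 to 1249691 in sulfatide, and 10254 to 10350 genes reached 1 FPKM. The absolute depth is unknown because no counts were used here. When each library was rescaled to the same sum (TPM), the median over all genes moved from 0.04 to -0.06, and the split of calls moved from 865 higher and 1078 lower to 467 higher and 1527 lower.

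General macrophage markers were abundant, and the markers of resident alveolar macrophages ranged from absent to well expressed. Of 7 general macrophage markers 1, Cd14, was called lower, beside 10.4% of all genes tested. The summed FPKM of the 7 was 32695 to 37371 in vehicle and 28988 to 40484 in sulfatide. Most of that sum was Lyz2 (lysozyme), at 26963 to 31506 FPKM in vehicle and 25051 to 35891 FPKM in sulfatide, which neutrophils also express. Of 11 alveolar macrophage markers 6 were tested, and 2 of these (Plet1 and Itgax) were called lower, beside 10.4% of all genes tested. Their summed FPKM was 138 to 187 in vehicle and 91.6 to 241 in sulfatide, most of it from Marco (60.0 to 183 FPKM over all libraries), Chil3 (19.3 to 45.6 FPKM) and, in vehicle, Plet1 (27.6 to 49.4 FPKM). Siglecf, which defines that cell type, was listed at 0.08 to 0.9 FPKM, and Fabp1 and Krt79 at 0 in every library. In bulk RNA, fewer cells of a type and less RNA per cell cannot be told apart.

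Fcgr2b, the inhibitory receptor, was the most abundant of the 4 receptors and rose with sulfatide. The vehicle libraries held 1047, 906 and 923 FPKM and the sulfatide libraries 1621, 1519.8 and 1794 FPKM. Every sulfatide library lay well above every vehicle library. The mean rose from 959 ± 76.6 to 1645 ± 139 FPKM (SD, n = 3 each), a 1.72-fold increase. The log2 fold change was 0.78 ± 0.10 (SE) with an adjusted p of 0.000714 (limma), and it ranked 233 from the highest of the 10405 genes.

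Fcgr3, the low-affinity activating receptor (CD16), rose by much the same factor. Its FPKM was 539.9, 514 and 556 in the vehicle libraries and 1010.4, 976 and 953 in the sulfatide libraries. The libraries of each group were tightly clustered and the groups were far apart. The mean rose from 537 ± 21.4 to 979.5 ± 29.1 FPKM (SD, n = 3 each), 1.83-fold. The log2 fold change of 0.87 ± 0.08 (SE) had an adjusted p of 0.000132 (limma) and ranked 168 from the highest. The calls of Fcgr3 and Fcgr2b held in all 15 alternative analyses, which included other scalings and leaving out each library. None of these changed how reads common to both genes were assigned. The sum of Fcgr2b and Fcgr3 was 1586, 1419.9 and 1479 FPKM in vehicle and 2631 to 2747 FPKM in sulfatide, a 1.75-fold difference of the means without overlap.

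Fcgr1, the high-affinity receptor for monomeric IgG (CD64), did not rise, and its test turned on one vehicle library. The vehicle libraries held 588, 299.8 and 638 FPKM and the sulfatide libraries 258, 302 and 387 FPKM. Vehicle replicate 3 lay among the sulfatide libraries, and the other vehicle libraries lay above all of them. The same library was also the vehicle library nearest to the sulfatide libraries across the genes tested. The part of that in the low values of Fcgr1 and, below, of Il18bp was not tested. The low Fcgr4 value of this library (73.0 FPKM) lay further from the sulfatide libraries (144 to 179 FPKM) than the other vehicle values did. The Fcgr1 means were 509 ± 182 FPKM in vehicle and 316 ± 65.4 FPKM in sulfatide (SD, n = 3 each), 1.61-fold apart. The log2 fold change was -0.63 ± 0.26 (SE), with a 95% confidence interval of -1.23 to -0.03 and an adjusted p of 0.129 (limma), so Fcgr1 was not called. Without vehicle replicate 3 the value was -0.97 with an adjusted p of 0.00230, and with limma's array weights, which give less weight to libraries that vary more, it was -0.68 with an adjusted p of 0.030. Over the 15 alternatives the adjusted p of Fcgr1 (limma) ran from 0.00230 to 0.597.

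Fcgr4, the activating receptor of intermediate affinity (CD16-2), was the least abundant of the 4. Its FPKM was 131, 73.0 and 132 in the vehicle libraries and 146, 144 and 179 in the sulfatide libraries. The groups did not overlap, but vehicle replicate 3 was far below the rest while the other vehicle libraries came close to the lower sulfatide libraries. The means were 112 ± 33.8 and 156 ± 19.5 FPKM (SD, n = 3 each), 1.39-fold apart. The log2 fold change of 0.52 ± 0.21 (SE) had a 95% interval of 0.04 to 0.99 and an adjusted p of 0.118 (limma), so Fcgr4 was not called. Without vehicle replicate 3 the value was 0.24.

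Fcer1g, the ITAM chain that the activating receptors need at the cell surface, was among the most abundant transcripts of all, with a vehicle mean above that of 99.8% of the genes tested. Its FPKM was 4440.2, 4534 and 4118 in vehicle and 5173, 4734 and 5422 in sulfatide. The groups did not overlap, though the gap between the highest vehicle and the lowest sulfatide library was small. The means were 4364 ± 218 and 5109 ± 348 FPKM (SD, n = 3 each), 1.17-fold apart. The log2 fold change of 0.23 ± 0.09 (SE) had an adjusted p of 0.111 (limma) and was not called. It was 0.11 after rescaling to TPM and 0.09 after quantile normalization, and it was 0.26 and called with array weights (limma adjusted p of 0.0219, with 0.0219 to 0.543 over all alternatives).

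**Figure D1:**
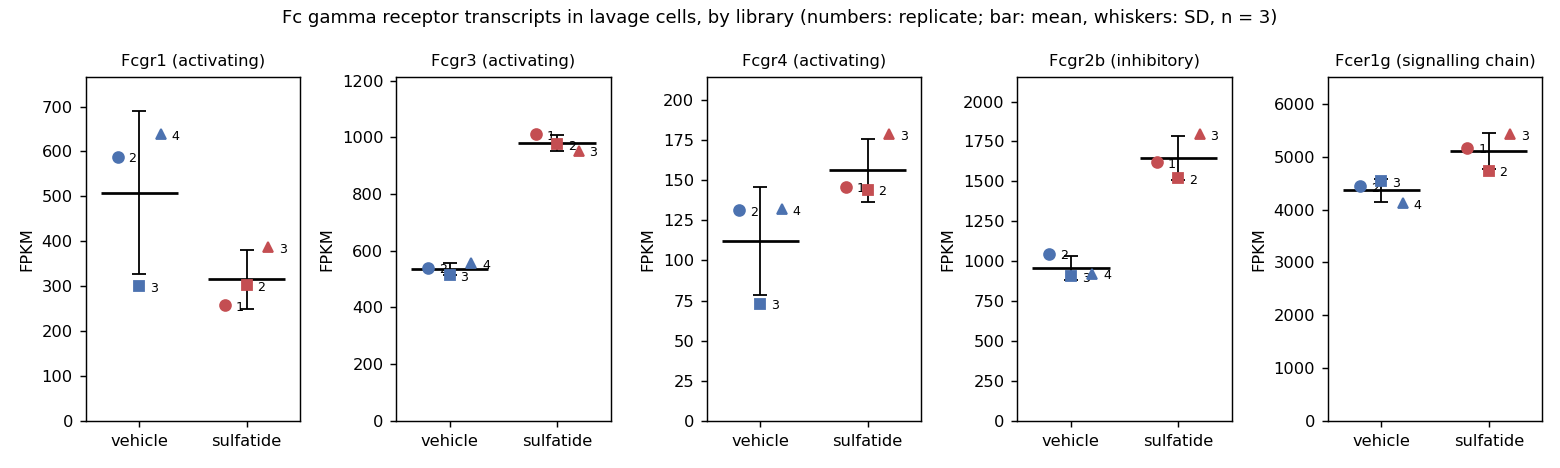
FPKM of the 5 genes in each library, with the vertical axis of each panel starting at 0; points are libraries numbered by replicate, horizontal bars are group means and whiskers are the SD of 3 libraries. The sulfatide libraries lie above the vehicle libraries for Fcgr3, Fcgr4, Fcgr2b and Fcer1g, whereas for Fcgr1 vehicle replicate 3 (299.8 FPKM) lies among the sulfatide libraries.

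In vehicle the order of levels per transcript length was Fcer1g, Fcgr2b, Fcgr3, Fcgr1 and Fcgr4. Fcgr3 and Fcgr1 were not separated beyond their spread there, since the vehicle range of Fcgr1 (299.8 to 638 FPKM) enclosed that of Fcgr3 (514 to 556 FPKM), and the other neighbours did not overlap. In sulfatide the order was the same and no neighbours overlapped: the lowest Fcgr3 library (953 FPKM) was above the highest Fcgr1 library (387 FPKM).

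The balance of activating to inhibitory receptors was set out within each library, as a difference of log2(FPKM + 1) values, and no test was made of these composite values. Fcgr2b, the reference here, itself rose without overlap (log2 fold change 0.78). A gene that did not change would therefore also tend to lie lower relative to it in sulfatide. Fcgr1 relative to Fcgr2b stood at -0.83, -1.59 and -0.53 in the vehicle libraries and at -2.65, -2.33 and -2.21 in the sulfatide libraries. All sulfatide libraries were below all vehicle libraries, vehicle replicate 3 included. The group means were -0.99 ± 0.55 and -2.39 ± 0.23 (SD, n = 3 each), a difference of -1.41, which ranged from -1.71 to -1.18 when single libraries were left out.

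The values of Fcgr3 kept pace with those of Fcgr2b, but how reads common to both genes were assigned is unknown. Fcgr3 relative to Fcgr2b was -0.95, -0.82 and -0.73 in vehicle and -0.68, -0.64 and -0.91 in sulfatide on the same log2 scale, so the groups overlapped, with a difference of the means of 0.09. As a plain ratio, Fcgr3 stood at 0.516 to 0.602 times Fcgr2b in vehicle and 0.531 to 0.642 times in sulfatide. Fcgr4 relative to Fcgr2b also overlapped, at -2.99, -3.62 and -2.80 in vehicle and -3.47, -3.39 and -3.32 in sulfatide. The means differed by -0.26, a value that became -0.50 when vehicle replicate 3 was left out and -0.09 when vehicle replicate 4 was. Fcer1g relative to Fcgr2b was 2.08, 2.32 and 2.16 in vehicle and 1.67, 1.64 and 1.60 in sulfatide. These groups did not overlap, and the means differed by -0.55, although Fcer1g itself did not fall (log2 fold change 0.23).

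**Figure D2:**
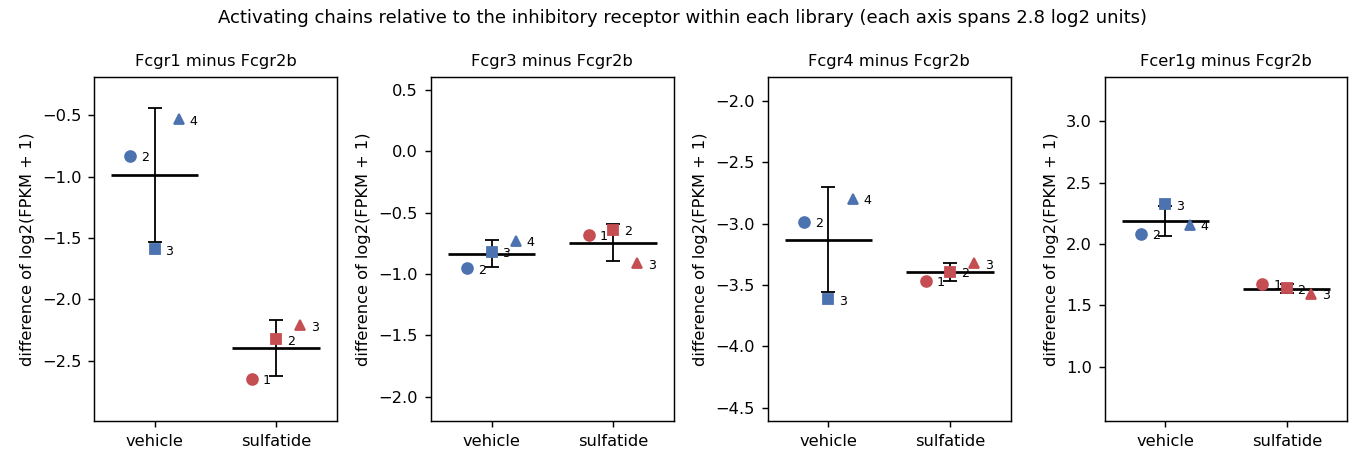
Log2(FPKM + 1) of Fcgr1, Fcgr3, Fcgr4 and Fcer1g minus that of Fcgr2b in the same library, with axes of equal span; points are libraries numbered by replicate, bars are means and whiskers are the SD of 3 libraries. Fcgr1 and Fcer1g are lower relative to Fcgr2b in every sulfatide library than in any vehicle library, while Fcgr3 and Fcgr4 overlap between the groups. Each difference includes the rise of Fcgr2b itself (log2 fold change 0.78).

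Summed over the 3 activating receptors, the FPKM was 1259, 887 and 1326 in vehicle and 1414, 1422 and 1518 in sulfatide. Divided by Fcgr2b of the same library, this gave 1.20, 0.978 and 1.44 in vehicle and 0.872, 0.936 and 0.846 in sulfatide. The groups did not overlap, but vehicle replicate 3 came close to sulfatide replicate 2. This ratio, too, includes the rise of Fcgr2b. The share of Fcgr1 in the summed FPKM of the 4 receptors was 25.5%, 16.7% and 28.4% in vehicle and 8.50%, 10.3% and 11.7% in sulfatide. The share of Fcgr3 was 23.4%, 28.7% and 24.7% in vehicle and 33.3%, 33.2% and 28.8% in sulfatide, just without overlap. The share of Fcgr2b was 45.4%, 50.5% and 41.0% against 53.4%, 51.7% and 54.2%, and that of Fcgr4 stayed within 4.07% to 5.86% over all 6 libraries. Among activating receptors alone, Fcgr1 was 0.584 to 1.15 times Fcgr3 in vehicle and 0.255 to 0.406 times in sulfatide. Fcer1g was 3.11 to 5.11 times the activating sum in vehicle and 3.33 to 3.66 times in sulfatide, so chain and receptors overlapped in their ratio.

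The genes whose pattern over the 6 libraries was most like each receptor were found by the root mean square difference of centred log2(FPKM + 1) values among 7965 tested genes with a mean of at least 5 FPKM. By that measure Fcgr3 and Fcgr2b differed by 0.12, and Fcgr1 differed from Fcgr3 by 0.83, from Fcgr2b by 0.78 and from Fcgr4 by 0.59. Nearest to Fcgr3 were Pla2g15, the lysosomal phospholipase A2 (0.04), Hebp1 (0.07) and Pkib (0.07). Nearest to Fcgr2b were Smagp, Pkib and C1ra (0.09 each), so Pkib was near both. Nearest to Fcgr1 were Il18bp, the interleukin 18 binding protein (0.13), Adap2 (0.16) and H2aw (0.18). Il18bp had the same outlying vehicle library, with 26.3, 11.8 and 25.6 FPKM against 11.4, 14.9 and 15.1 FPKM in the sulfatide libraries. Nearest to Fcgr4 were Bcl6, a transcriptional repressor (0.14), the ribosomal protein gene Rps27 (0.15) and Cdk20 (0.16), and nearest to Fcer1g were Ntmt1 (0.02), Smim8 (0.03) and Tpt1 (0.03).

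Of 19 kinases and ITAM adaptors that act next to the receptors, 18 were tested, and 2 were called higher and 6 lower. The shares of all genes tested were 8.31% and 10.4%, and no test was made of this or any other list as a set. The median log2 fold change was -0.18. Syk, the kinase that docks on phosphorylated ITAMs, had FPKM of 135, 120.1 and 161 in vehicle and 67.8, 91.0 and 70.9 in sulfatide. All sulfatide libraries were lower, and the log2 fold change was -0.85 ± 0.14 (SE) with an adjusted p of 0.00347 (limma). Src itself fell from 34.8 ± 4.54 to 12.6 ± 3.34 FPKM (SD, n = 3 each; log2 fold change -1.42, limma adjusted p of 0.000696). Of the Src family kinases of myeloid cells, Lyn (log2 fold change 0.09, limma adjusted p of 0.554) and Fgr (0.42, limma adjusted p of 0.0919) were not called.

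The adaptor Lcp2 (SLP-76) fell from 306 ± 23.4 to 204 ± 11.4 FPKM (SD, n = 3 each; log2 fold change -0.58), and the kinase Fyn fell from 46.2 to 29.9 FPKM (-0.62). Ptprc (CD45), the phosphatase that keeps Src family kinases primed, fell from 152 to 123 FPKM (-0.31). Tyrobp (DAP12), an ITAM adaptor of other receptors, rose from 1705 ± 50.4 to 2177 ± 112 FPKM (SD, n = 3 each; log2 fold change 0.35, limma adjusted p of 0.0170). It was no longer called after rescaling to TPM (0.24, limma adjusted p of 0.0528, with 0.00193 to 0.104 over all alternatives). Lat2, a transmembrane adaptor, was the other that rose, from 103 to 148 FPKM. Lat2 and Ptprc were named after their values were seen. The call of Tyrobp was lost in 6 of the 15 alternatives.

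Of 28 effectors of Fc receptor phagocytosis, all tested, 1 was called higher and 6 lower, beside 8.31% and 10.4% of all genes tested. The median log2 fold change was -0.15. Prkcd, a protein kinase C isoform that acts below the receptors and phospholipase C, held 479.6, 504 and 462 FPKM in vehicle and 243, 243 and 253 FPKM in sulfatide. The groups were 1.96-fold apart with little spread inside either, and the log2 fold change was -0.97 ± 0.08 (SE) with an adjusted p of 8.68e-05 (limma). Malt1, the protease partner of Card9 and Bcl10, fell from 33.6 ± 4.76 to 9.80 ± 2.18 FPKM (SD, n = 3 each; log2 fold change -1.69, limma adjusted p of 0.000182). Pik3ap1, an adaptor for phosphoinositide 3-kinase, fell from 175 to 110.0 FPKM (-0.67). Pik3cb (-0.42, limma adjusted p of 0.0448), Dock2 (-0.49, 0.0195) and Myo1g (-0.29, 0.0317), named after their values were seen, were also called lower. Their calls were not followed singly through the alternatives. Vav1, an exchange factor for Rac, rose from 191 ± 9.67 to 250.1 ± 16.4 FPKM (SD, n = 3 each; log2 fold change 0.39), a call that 4 of the 15 alternatives lost.

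On the inhibitory side, 8 phosphatases and adaptors were tested, and 1 was called higher and 2 lower, beside 8.31% and 10.4% of all genes tested. The median log2 fold change was 0.02. The partner of Fcgr2b, Inpp5d (SHIP1), was at 41.8, 32.0 and 47.8 FPKM in vehicle and 43.2, 49.0 and 46.0 in sulfatide. The groups overlapped, and the log2 fold change of 0.20 had a 95% interval of -0.12 to 0.51 and an adjusted p of 0.352 (limma). Ptpn6 (SHP-1), the phosphatase of many other ITIM receptors, was not called either (437 and 451 FPKM, limma adjusted p of 0.697). Dok2, an adaptor of inhibitory signalling, fell from 65.1 to 42.8 FPKM (-0.59), and Inppl1 (SHIP2) fell from 30.9 to 24.0 FPKM (-0.36), the latter in a call that 5 of the 15 alternatives lost.

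**Figure D3:**
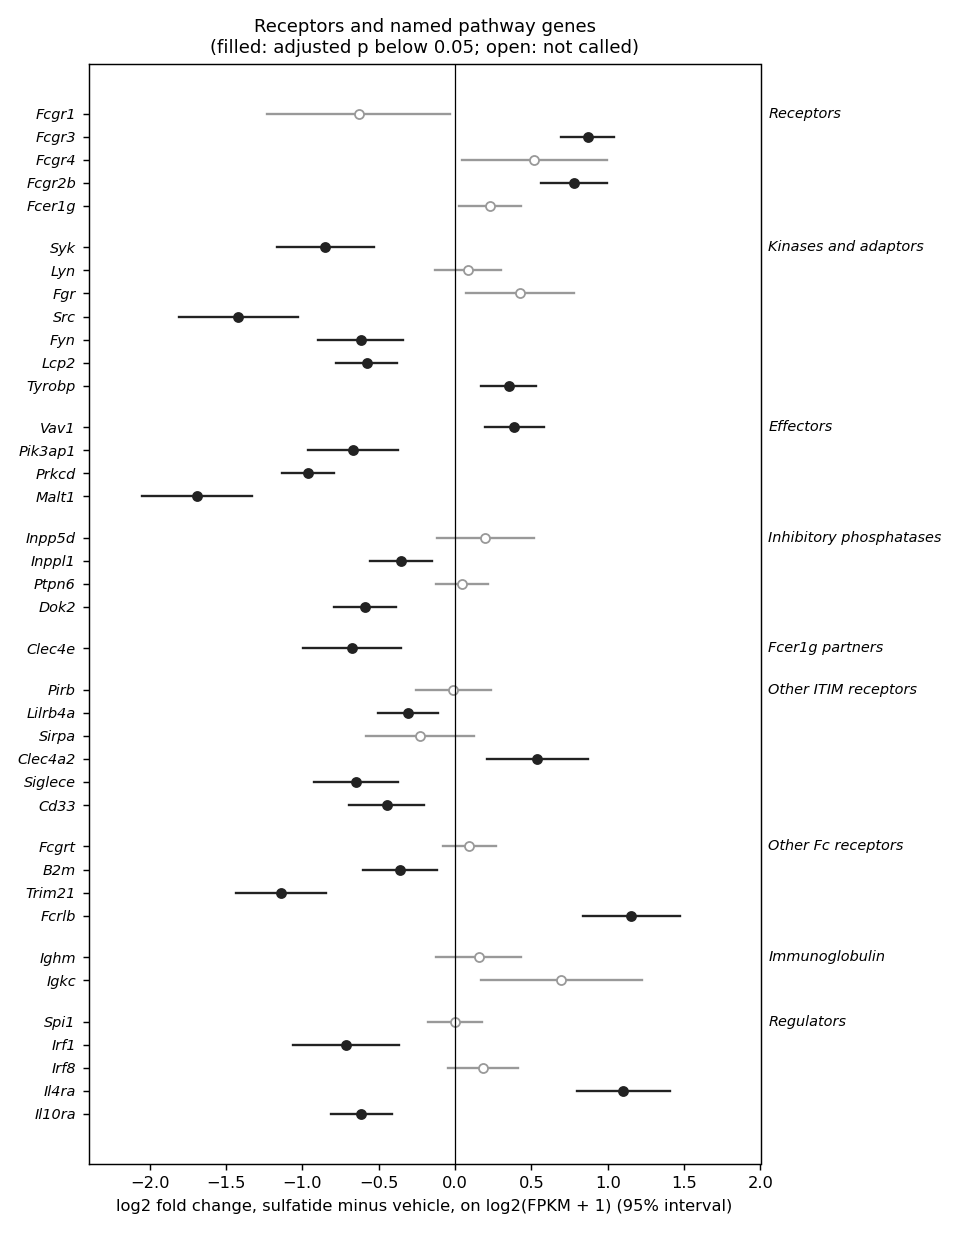
Log2 fold change (sulfatide minus vehicle, on log2(FPKM + 1)) with 95% limma intervals for the 5 Fc gamma receptor genes and the named genes of each pathway list; filled points were called at an adjusted p below 0.05 and open points were not. Fcgr3 (0.87) and Fcgr2b (0.78) lie to the right, while Syk (-0.85), Src (-1.42), Prkcd (-0.97), Malt1 (-1.69) and Trim21 (-1.14) lie to the left.

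Other inhibitory ITIM receptors were called in both directions. Of 19 such genes 13 were tested, 1 was called higher and 3 lower, beside 8.31% and 10.4% of all genes tested. The median log2 fold change was -0.05. Clec4a2 (DCIR) rose from 230.5 to 336 FPKM (log2 fold change 0.54, limma adjusted p of 0.0349), a call lost in 8 of the 15 alternatives, rescaling to TPM included (0.43). Siglece, a sialic acid receptor, fell from 51.2 to 32.4 FPKM (-0.65). Cd33 (-0.45) and Lilrb4a (-0.31) fell too, in calls lost in 4 and 8 of the 15 alternatives. Pirb, the paired immunoglobulin-like receptor B, had means of 487 and 482 FPKM (log2 fold change -0.01, limma adjusted p of 0.959), a value whose sign changed with the scaling. Sirpa, the receptor for CD47, was not called (-0.23, limma adjusted p of 0.331).

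Of 17 other receptors that pair with Fcer1g, 13 were in the table and 7 were tested. With limma 0 were called higher and 1 lower (0 and 2 at an unadjusted p below 0.05), beside 8.31% and 10.4% of all genes tested. The median log2 fold change was 0.03. The 1 called was Clec4e (Mincle), a receptor for mycobacterial cord factor, with FPKM of 2663, 2394 and 2039.8 in vehicle and 1282, 1799 and 1388 in sulfatide. The groups did not overlap, and the log2 fold change of -0.67 ± 0.14 (SE) had an adjusted p of 0.0126 (limma). This p became 0.0660 without vehicle replicate 2, the highest of the alternatives, which began at 0.000912. Clec4d, with means of 3134 and 3222 FPKM, was not called (log2 fold change 0.03, limma adjusted p of 0.837). Clec4n, with means of 119 and 167 FPKM and overlapping groups, was not called either (0.44, limma adjusted p of 0.367). Clec4d and Clec4n were named after their values were seen.

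Among 13 other Fc receptor genes, 6 were tested, and 1 was called higher and 2 lower, beside 8.31% and 10.4% of all genes tested. The median log2 fold change was 0.10. Trim21, the cytosolic antibody receptor, fell from 51.2 ± 7.87 to 22.6 ± 2.31 FPKM (SD, n = 3 each; log2 fold change -1.14, limma adjusted p of 0.000479). The neonatal Fc receptor Fcgrt had means of 70.7 and 75.6 FPKM and was not called (0.09, limma adjusted p of 0.425), with a sign that turned after rescaling to TPM (-0.02). Its light chain B2m fell from 7211 to 5583 FPKM (-0.36), a call lost in 9 of the 15 alternatives. Of the ligand side, 2 of 13 immunoglobulin genes passed the filter and 0 were called with limma (1 at an unadjusted p below 0.05). Igkc was at 1.48, 3.02 and 1.93 FPKM in vehicle and 5.75, 2.86 and 3.77 FPKM in sulfatide, overlapping between the groups (limma adjusted p of 0.0684), and it was called without vehicle replicate 3 (limma adjusted p of 0.0216, with 0.00752 to 0.231 over all alternatives). Ighm had means of 3.69 and 4.20 FPKM (limma adjusted p of 0.409).

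The Fc receptor gene of that list that rose lies beside the receptors. Fcrlb, which encodes an intracellular Fc receptor-like protein, had FPKM of 9.53, 6.77 and 8.04 in vehicle and 19.6, 16.7 and 21.4 in sulfatide. All sulfatide libraries were well above all vehicle libraries, and its log2 fold change of 1.15 ± 0.14 (SE) had an adjusted p of 0.000695 (limma). From Fcrlb to Fcer1g the annotation lists 21 genes over 327.1 kb, of which 13 were in the table, 10 were tested, 3 were called higher (Fcrlb, Fcgr2b and Fcgr3) and 0 lower with limma (1 lower at an unadjusted p below 0.05). Over all genes tested, 8.31% were called higher and 10.4% lower. Of the 6 tested neighbours that are not among the 5 genes, Fcrlb was the 1 that was called. Relative to the start site of Fcgr2b, that of Fcrlb was at -63.6 kb, that of Fcgr4 at 42.4 kb and that of Fcgr3 at 88.4 kb. Sdhc, a subunit of succinate dehydrogenase at 174.1 kb and the next tested gene beyond Fcgr3, had a log2 fold change of 0.08 (limma adjusted p of 0.543). A long antisense transcript, Gm38204, overlaps Fcgr2b in the annotation and was not analysed here. The labels describe strand-specific libraries, but whether counting used the strand is not given in the sources used here.

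**Figure D4:**
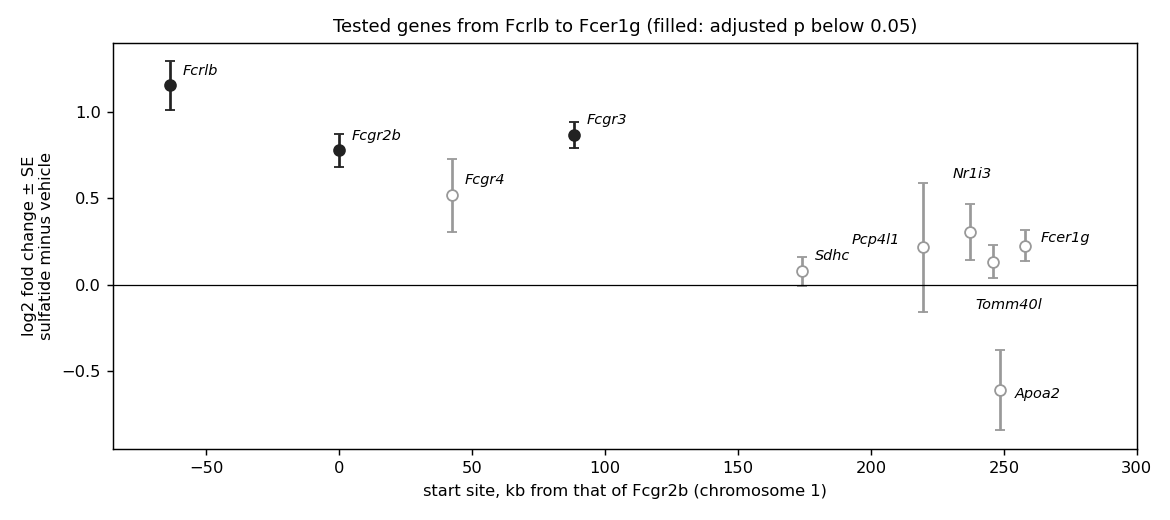
Log2 fold change (sulfatide minus vehicle, ± SE from limma, n = 3 each) of the 10 tested genes from Fcrlb to Fcer1g against the distance of each start site from that of Fcgr2b in kb; filled points were called at an adjusted p below 0.05. Fcrlb (1.15), Fcgr2b (0.78) and Fcgr3 (0.87) are the filled points, and Sdhc (0.08) and the genes beyond it are open.

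Of 15 factors and receptors known to set Fc gamma receptor transcription, all tested, 2 were called higher and 3 lower, beside 8.31% and 10.4% of all genes tested. The median log2 fold change was -0.00026. Irf1, an interferon-induced factor, fell from 174 ± 27.7 to 106.0 ± 20.6 FPKM (SD, n = 3 each; log2 fold change -0.71, limma adjusted p of 0.0140). Its adjusted p was 0.0659 without vehicle replicate 2 and ran from 0.00488 to 0.120 over all alternatives (limma).

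Il4ra, the interleukin 4 receptor chain, was at 88.5, 65.6 and 93.3 FPKM in vehicle and 160.3, 189 and 180.2 FPKM in sulfatide. The groups were far apart, and the log2 fold change was 1.10 ± 0.14 (SE) with an adjusted p of 0.000711 (limma). Il10ra, the interleukin 10 receptor chain, fell from 62.9 ± 3.56 to 40.8 ± 2.26 FPKM (SD, n = 3 each; log2 fold change -0.61, limma adjusted p of 0.00165). Ifngr1, the ligand-binding chain of the interferon gamma receptor, was the other that rose, from 144 to 173 FPKM. It was named after its values were seen, and in 11 of the 15 alternatives 1 rather than 2 genes of this list were called higher. Spi1, which encodes PU.1, had means of 1375 FPKM in both groups (limma adjusted p of 0.999), and Irf8 had means of 97.9 and 111 FPKM (limma adjusted p of 0.240).

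Fc gamma receptors are also made by other cells of the lung, and their markers were read in the same libraries. B cells carry Fcgr2b as their only Fc gamma receptor: Ms4a1 and Pax5 were at 0 in every library, 3 of the 9 markers of B and plasma cells were tested and 0 called with limma (1 at an unadjusted p below 0.05), and their summed FPKM was 5.80 to 8.24 in vehicle and 8.63 to 11.8 in sulfatide. Natural killer cells carry Fcgr3: of 12 markers of NK and T cells 0 passed the filter, 7 were at 0 in every library (Ncr1 and Cd3e among them), and their summed FPKM was 0.20 to 0.38 in vehicle and 0.15 to 0.32 in sulfatide. Neutrophils carry Fcgr3 and Fcgr4: of 10 markers 4 were tested and 1, S100a8, was called higher, beside 8.31% of all genes tested. The summed FPKM of these markers was 156 to 207 in vehicle and 431 to 580.1 in sulfatide. The rise of the sum was mostly S100a8, with means of 105 FPKM in vehicle and 419 FPKM in sulfatide. The other tested markers were not called: S100a9 (means of 21.9 and 21.2 FPKM), Csf3r (51.2 and 64.0 FPKM) and Camp (5.12 and 3.46 FPKM). Ly6g, which defines mouse neutrophils, reached at most 0.18 FPKM in any library and Cxcr2 at most 0.12 FPKM.

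Patrolling monocytes are known for Fcgr4. Of 9 monocyte markers 7 were tested, and 0 were called higher and 3 lower with limma (1 and 4 at an unadjusted p below 0.05). The shares of all genes tested were 8.31% and 10.4%. Those called lower were Nr4a1, Cx3cr1 and Spn. The 4 not called went both ways: Ccr2 (log2 fold change 0.43, groups without overlap), Chil3 (0.26), Ly6c2 (-0.18) and Treml4 (-0.74). The summed FPKM was 102 to 115 in vehicle and 77.9 to 109.9 in sulfatide, overlapping between the groups. Of 10 markers of mast cells, basophils and eosinophils 1, Prg2, was tested and 0 were called with limma (0 at an unadjusted p below 0.05). Prg2 was at 1.44 to 4.26 FPKM in vehicle and 0.44 to 5.55 FPKM in sulfatide. Fcer1a, Ms4a2, Mcpt4, Cma1 and Tpsb2 were at 0. Of 7 dendritic cell markers, with summed FPKM of 2.33 to 2.90 in vehicle and 2.67 to 3.42 in sulfatide, 2 were tested. Cd209a was at 0 FPKM in every vehicle library and 1.19 to 2.59 FPKM in sulfatide. Ccr7 was at 1.63 to 2.31 FPKM in vehicle and 0.41 to 0.81 FPKM in sulfatide. Each passed the filter only through the group where it was high. Their calls, Cd209a higher and Ccr7 lower, are therefore not read as results. Of 7 markers of lung epithelium and stroma 1, Col1a1, was tested and 0 were called with limma (0 at an unadjusted p below 0.05). Col1a1 was at 15.0 to 22.6 FPKM in vehicle and 13.0 to 17.6 FPKM in sulfatide, whereas Sftpc and Sftpa1 were at 0. Their summed FPKM was 15.4 to 23.2 in vehicle and 13.9 to 18.0 in sulfatide. The part of the lower Nr4a1, Cx3cr1 and Spn and of the higher S100a8 in the receptor values was not tested.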

How the data were processed

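RNA of lavage cells was sequenced in 6 libraries. Per the labels' protocols, poly(A) RNA was made into strand-specific libraries and read as paired ends. The build named is mm10, per the submitters' processing notes. No aligner, counting program or annotation is given in the sources used here. The authors deposited a table of FPKM values, rounded to 2 decimals, for 22800 gene symbols. Of its 9 value columns, 3 matched no sample of the series and were not used. FPKM are not counts, so no count model was run, and the absolute depth, and with it the precision of low values, is unknown.

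Values were analysed as log2(FPKM + 1), a pseudocount of 1 that understates changes of low genes. Genes at 1 FPKM or more in at least 3 libraries were tested with limma 3.58.1 in R 4.3.3 (lmFit, eBayes with an intensity trend, 2-sided, Benjamini-Hochberg adjustment over all 10405 genes tested, called below 0.05), and the script was tested on simulated data. Groups came from the sample titles. With 3 libraries a group, the smallest 2-sided p of an exact permutation test is 0.1, and that test was not applied. Folds are ratios of mean FPKM.

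The 5 genes and all lists were chosen with earlier results of these data known. Named were the 5 genes, in each list up to 4 called genes with the smallest p, 18 further pathway genes whatever their result, and the 3 genes most like each of the 5 genes. Of these, 3 are not reported here. Promoters came from RefSeq (GRCm38.p6) and positions and coding sequences from GENCODE M21, both of the build the files use. The alternatives were other pseudocounts, TPM or quantile scaling, other filters, no intensity trend, array weights, a replicate block and leaving out each library. The vehicle and sulfatide groups share replicate numbers 2 and 3 only.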

Additional observations from a re-analysis of the deposited data

How the results depend on the processing

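Fcgr3 (0.76 to 0.89) and Fcgr2b (0.67 to 0.84) kept their direction and their call in all 15 alternatives, and Fcgr4 stayed uncalled in all 15 (0.24 to 0.71). Fcgr1 kept its direction and was called with array weights (-0.68) and without vehicle replicate 3, over a range of -0.97 to -0.43 when single libraries were left out. Fcer1g kept its direction and was called with array weights (0.26). The number of genes called higher (865) was 467 after rescaling to TPM, 522 with no filter, 2054 with array weights, and 268 (without vehicle replicate 2) to 1421 (without vehicle replicate 3) when single libraries were left out. The number called lower (1078) was 1723 with array weights and 642 (without vehicle replicate 2) to 1135 when single libraries were left out. The small counts of the pathway lists moved too, higher and lower calls being 0 to 3 and 4 to 8 for kinases and adaptors (2 and 6 as reported), 0 to 2 and 3 to 9 for effectors (1 and 6), 0 to 1 and 1 to 3 for inhibitory phosphatases (1 and 2), 0 to 1 and 0 to 2 for Fcer1g partners (0 and 1), 0 to 3 and 0 to 4 for ITIM receptors (1 and 3), 1 and 1 to 2 for other Fc receptors (1 and 2), 0 to 1 and 0 for immunoglobulin chains (0 and 0), and 1 to 2 and 2 to 3 for regulators (2 and 3). The causes were not tested.

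Replicate numbers 2 and 3 were shared by the groups, but the deviations of same-numbered libraries correlated at 0.156 and -0.303, so the numbers are not shown to pair the libraries. With the number as a block, which leaves out no library but lets only shared numbers inform the contrast, 297 genes were called higher and 635 lower. Fcgr3 (0.87, limma adjusted p of 0.00316) and Fcgr2b (0.76, limma adjusted p of 0.0137) were still called, and Fcgr1 (-0.30), Fcgr4 (0.71) and Fcer1g (0.18) were not. Signs of uncalled genes near 0 turned as follows: Fcgrt (-0.016), Lyn (-0.024) and Ptpn6 (-0.065) after rescaling to TPM, Pirb with quantile normalization (0.016), array weights (0.037), the block (0.13) or 3 of the single libraries left out (-0.096 to 0.073 over all 6), Sirpa with the block (0.0011), and Spi1 with 4 of the single libraries left out (-0.038 to 0.033 over all 6). Depth is unknown, and it limits genes near the 1 FPKM filter, such as Igkc, most.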
